A study of Homo sapiens with 18 samples.

Results

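The genes described here are 31 genes of cholesterol and fatty acid synthesis, grouped by name and role, with no measured value in the rule, out of 28277 genes in the deposited count table. The list was drawn up with earlier results of these data known. All 31 were counted, and all 31 were among the 14938 genes that passed the filter on low counts and were tested. They were read in OVCAR3, an ovarian carcinoma cell line, made to carry a catalytically dead Cas9 fused to the KRAB repressor domain, so that a guide RNA silences the promoter it is aimed at (CRISPR interference). The series set 3 guides against each other, sgCtl (aimed at a Gal4 promoter that human cells lack) and sgXIST7 and sgXIST9 (aimed at separate stretches of the promoter of XIST, the long noncoding RNA of X-chromosome inactivation), each in normoxia and after 24 h at 1% oxygen (hypoxia), with 3 libraries in each of the 6 groups. All groups carried the dCas9-KRAB transgene and grew in serum-containing medium, which brings its own lipoprotein cholesterol. The labels name no clone, and the study describes clonal cells with 3 biological replicates. Each guide is therefore read here as 1 clone and its replicates as cultures of that clone, which the sources do not state. On this reading the effect of a guide and a difference between clones cannot be told apart. The questions addressed were how the pathway responds to low oxygen and whether it differs after XIST knockdown (KD).

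Cholesterol is built from acetyl-CoA through mevalonate, farnesyl diphosphate, squalene and lanosterol, and fatty acids from the same acetyl-CoA through malonyl-CoA. The genes of both routes are switched on by the SREBP transcription factors, which SCAP escorts out of the endoplasmic reticulum when sterols are scarce and which the INSIG proteins hold back when sterols are plentiful. Several steps consume molecular oxygen, among them squalene epoxidation, lanosterol demethylation and fatty acid desaturation, so that the pathway meets oxygen supply at defined enzymes. By role the 31 genes fall into 7 that lead to farnesyl diphosphate (the mevalonate genes), 11 that lead from there through squalene to cholesterol, 6 that control the pathway or carry sterol, and 7 that make and modify fatty acids.

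The 18 libraries held 11794375 to 24906936 counts. XIST was read at 4900, 11209 and 4213 counts in sgCtl normoxia and 1974, 5014 and 1589 in sgCtl hypoxia, at 0 to 5 counts in the sgXIST7 libraries and at 357 to 1009 in the sgXIST9 libraries. Of 8 hypoxia-induced genes, 6 rose in sgCtl and 7 in each KD clone. Their levels in hypoxia differed between clones: CA9 stood at 6 to 33 counts in sgCtl, 290 to 517 in sgXIST7 and 398 to 711 in sgXIST9. EGLN3 went the other way, at 31 to 281, 6 to 29 and 13 to 49 counts. In each KD clone the response of 1 of the 8 was larger than in sgCtl at an adjusted p under 0.01 (all tested genes 1.18% in sgXIST7 and 0.756% in sgXIST9). Of 9 markers of ovarian carcinoma epithelium, EPCAM, KRT18, KRT8 and PAX8 were present, MUC16, KRT7 and CDH1 stood at 0 to 4 counts in every library, and WT1 and MSLN at 0 to 16 counts, so the cells lacked several markers that define the labelled cell type. Markers of leukocytes (PTPRC, CD3E) and of endothelium (PECAM1, CDH5) were at 0 to 8 counts, whereas CD68, the remaining leukocyte marker, was at 202 to 1051 counts, and VWF, the remaining endothelial one, at 0 to 13. Of 4 fibroblast markers, COL1A2 averaged 0.275 CPM (counts scaled to a common library size, with TMM factors) in sgCtl normoxia against 96.7 in sgXIST7 and 49.1 in sgXIST9 (in hypoxia 0.213, 189 and 45.4), COL1A1 moved the same way (0.564, 2.79 and 2.25 CPM), and DCN and LUM stood at 0 to 30 counts in every library. Of these 4 markers 3 were tested, and the remaining one tested, DCN or LUM, went the other way. Against sgCtl in normoxia its log2 difference was -3.46 in sgXIST7 and -3.36 in sgXIST9, and neither passed. In hypoxia the differences were -5.12 and -4.04, and both passed. The part of these markers in the KD results below was not tested. Replicate 3 of each hypoxia group had the smallest total of its group and correlated with its fellows at 0.953 to 0.984 in log2 CPM over genes, against 0.987 to 0.988 between replicates 1 and 2. It stood apart least in sgXIST7. There the mean absolute log2 difference over the members was 0.30 between replicates 2 and 3, 0.32 between 1 and 2, and 0.51 between 1 and 3. Replicate 2 of sgXIST7 in normoxia also stood apart for several members. For the responses to hypoxia the counts of members called are given with and without replicate 3. Apart from SREBF1, SREBF2, INSIG1 and INSIG2, members were picked for values by library because they were called and their groups did not overlap. Absence of overlap in those comparisons adds no support to the calls.

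Promoter sequences are shown for 7 members as examples, namely the control genes SREBF2, INSIG2 and STARD4, the mevalonate genes MVK and MVD, called in hypoxia in sgXIST7, and SCD and TM7SF2, called in both tests of the difference in response. They let the letters known to bind the pathway's regulators be seen in place. Each is the 250 bases before the RefSeq start site on GRCh38.p14, 5′ to 3′, with matches to 4 motifs, searched on both strands, in capitals. The motifs were TCACNCCAC, found in sterol regulatory elements, and CCAAT, the core bound by NF-Y. The third was CACGTG, known as an E-box, and the fourth was ACGTG, the core of a hypoxia response element, which every E-box of the former kind also holds. The windows lie at chr22:41832855-41833104 (plus strand) for SREBF2, chr12:109573544-109573793 (plus strand) for MVK, chr16:88663092-88663341 (minus strand) for MVD, chr11:65111622-65111871 (plus strand) for TM7SF2, chr10:100346983-100347232 (plus strand) for SCD, chr2:118088221-118088470 (plus strand) for INSIG2 and chr5:111512536-111512785 (minus strand) for STARD4.
SREBF2: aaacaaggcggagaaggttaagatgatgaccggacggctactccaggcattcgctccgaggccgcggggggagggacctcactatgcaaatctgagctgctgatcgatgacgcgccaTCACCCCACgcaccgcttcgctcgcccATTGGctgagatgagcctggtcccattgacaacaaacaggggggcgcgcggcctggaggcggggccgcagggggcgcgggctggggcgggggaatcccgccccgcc
MVK: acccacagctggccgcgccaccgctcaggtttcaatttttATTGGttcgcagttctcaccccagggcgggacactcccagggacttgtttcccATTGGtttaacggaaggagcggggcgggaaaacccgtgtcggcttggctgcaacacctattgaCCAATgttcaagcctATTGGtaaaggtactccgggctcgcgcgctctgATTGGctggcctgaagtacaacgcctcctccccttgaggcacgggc
MVD: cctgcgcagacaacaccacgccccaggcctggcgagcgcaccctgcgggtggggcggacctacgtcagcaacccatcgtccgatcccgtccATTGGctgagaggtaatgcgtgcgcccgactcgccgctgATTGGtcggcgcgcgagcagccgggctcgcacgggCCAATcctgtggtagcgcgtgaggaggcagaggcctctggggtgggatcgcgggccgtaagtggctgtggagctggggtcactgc
TM7SF2: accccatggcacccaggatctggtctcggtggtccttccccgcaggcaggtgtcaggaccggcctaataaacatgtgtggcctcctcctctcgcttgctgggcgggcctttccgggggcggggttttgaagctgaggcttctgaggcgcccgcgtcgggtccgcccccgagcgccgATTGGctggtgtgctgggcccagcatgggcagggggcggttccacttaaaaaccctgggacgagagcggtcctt
SCD: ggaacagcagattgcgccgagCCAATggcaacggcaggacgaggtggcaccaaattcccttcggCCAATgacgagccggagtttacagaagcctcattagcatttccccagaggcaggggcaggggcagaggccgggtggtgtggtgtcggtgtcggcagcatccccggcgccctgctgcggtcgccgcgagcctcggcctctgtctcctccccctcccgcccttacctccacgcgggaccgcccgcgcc
INSIG2: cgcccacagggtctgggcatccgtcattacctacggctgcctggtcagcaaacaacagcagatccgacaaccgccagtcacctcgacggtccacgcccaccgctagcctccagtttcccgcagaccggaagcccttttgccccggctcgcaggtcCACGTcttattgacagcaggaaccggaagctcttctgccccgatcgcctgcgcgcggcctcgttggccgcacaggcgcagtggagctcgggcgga
STARD4: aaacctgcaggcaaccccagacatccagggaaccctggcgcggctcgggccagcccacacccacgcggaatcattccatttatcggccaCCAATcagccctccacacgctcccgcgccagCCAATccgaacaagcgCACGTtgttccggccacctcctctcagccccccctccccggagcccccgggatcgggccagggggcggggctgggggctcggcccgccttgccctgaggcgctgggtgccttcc

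Over the 300-base windows of the 27 members found in the promoter table (250 bases before and 50 after the start), CCAAT was present in 17 (63% against 34.6% of all 35116 promoters), CACGTG in 4 (14.8% against 7.26%), ACGTG in 7 (25.9% against 21.4%) and TCACNCCAC in 1 (3.7% against 1.13%). The last was SREBF2, with the match beginning at position -133 and an inverted CCAAT at -106. MVK and NSDHL each held 5 CCAAT matches and MSMO1 4. Among the members with ACGTG were INSIG1 with 3 matches, INSIG2 with 1 at -95 and STARD4 with 1 at -114, while SCD held 2 CCAAT matches and none of the other motifs. These are matches of letters in a fixed window and do not show binding.

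Compared per length, in TPM (counts per exon length, scaled to a common total) over the exons on the main chromosomes, the members spanned a wide range in sgCtl normoxia. FDPS, which makes farnesyl diphosphate, led at 89.4 ± 5.84 TPM (SD, n = 3), followed by ACAT2 (acetoacetyl-CoA thiolase, 55.3 ± 1.26), ACLY (ATP citrate lyase, which supplies cytosolic acetyl-CoA, 54.6 ± 9.36) and EBP (sterol isomerase, 54.2 ± 3.29), and these 3 neighbours differed by less than their spread. At the low end stood MVK (mevalonate kinase, 3.70 ± 0.798), LSS (lanosterol synthase, 1.70 ± 0.201) and ACACA (acetyl-CoA carboxylase, 1.45 ± 0.481), the last 2 again within their spread. SCD, the stearoyl-CoA desaturase, ranked in the middle at 13.0 ± 4.61 TPM and became the highest member in every hypoxia group, at 144 ± 2.70 TPM in sgCtl, 349.9 ± 62.8 in sgXIST7 and 197 ± 38.7 in sgXIST9. In sgXIST7 normoxia ACLY led at 143 ± 39.9 TPM, with SCD at 121 ± 58.7, again within the spread of the 3 libraries. These are bulk libraries, in which fewer cells with a transcript and less transcript per cell cannot be told apart.

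Hypoxia moved the members in both directions in every clone. In sgCtl 10 of 31 rose and 4 fell at an adjusted p under 0.01 (edgeR quasi-likelihood test, adjusted over all genes tested), where 18.8% of all tested genes rose and 18.8% fell. In sgXIST7 6 rose and 10 fell (all genes 23.6% and 23.2%), and in sgXIST9 9 rose and 4 fell (all genes 23.1% and 19%). Their median log2 change was 0.26 in sgCtl, -0.30 in sgXIST7 and 0.15 in sgXIST9, against medians over all genes of 0.02, 0.0097 and 0.09. With a further limit of 2-fold, 7, 12 and 8 members passed, against 19.7%, 27.3% and 23.2% of all genes. Without replicate 3 of the hypoxia groups the counts were 13 up and 6 down in sgCtl, 9 and 10 in sgXIST7, and 14 and 3 in sgXIST9. Leaving these libraries out also changes the estimate of spread, and the shares of all genes in that fit were not computed.

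**Figure D1:**
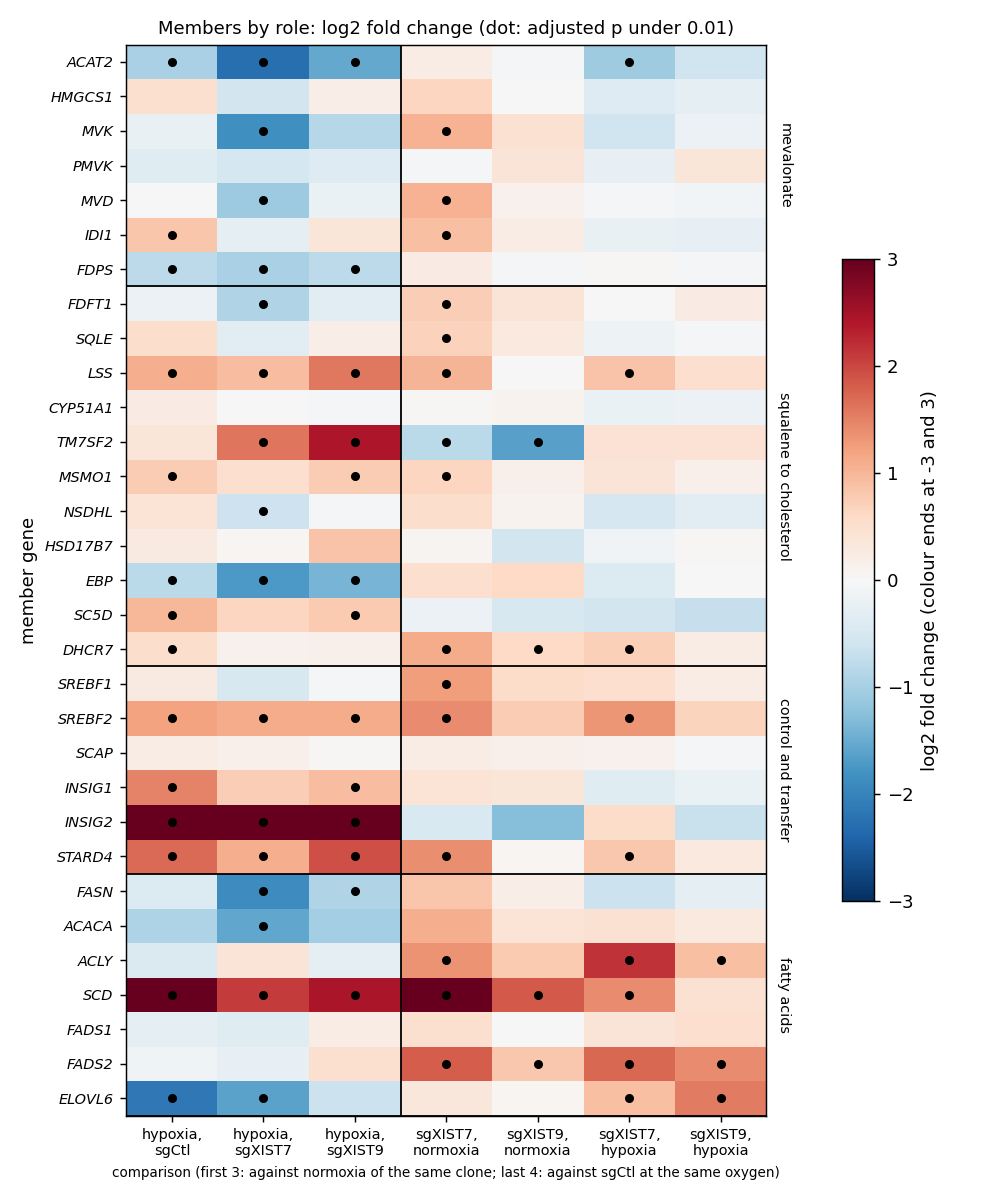
Heat map of log2 fold changes of the 31 members (rows, grouped by role) in 7 comparisons (columns), with red for higher, blue for lower, and a black dot where the adjusted p was under 0.01. INSIG2 and SCD are red in all 3 hypoxia columns, the mevalonate rows are bluest in the sgXIST7 hypoxia column, and the sgXIST7 normoxia column holds 14 dots on red and 1 on blue.

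Of the 6 control genes, 4 rose in hypoxia in sgCtl, 3 in sgXIST7 and 4 in sgXIST9, where 18.8%, 23.6% and 23.1% of all tested genes rose. None fell, by this test with all libraries or by DESeq2, and at an unadjusted p under 0.05 the only lower value was that of SREBF1 in sgXIST7, which passed in 2 other fits given with its values. INSIG2, which retains SCAP in the endoplasmic reticulum, was read at 10.3, 13.8 and 9.93 CPM in sgCtl normoxia and 133, 93.5 and 279 in sgCtl hypoxia, a 14.9-fold rise (log2 fold change 3.89 ± 0.41 SE, adjusted p = 1.09e-06). In sgXIST7 it went from 6.27, 12.9 and 5.88 to 200.04, 255 and 286 CPM (log2 fold change 4.90 ± 0.43 SE, adjusted p = 6.83e-08). In sgXIST9 it went from 4.02, 5.26 and 4.79 to 95.4, 64.9 and 157 CPM (log2 fold change 4.50 ± 0.43 SE, adjusted p = 2.64e-07). Every hypoxia library of a clone lay above every normoxia library of it, and the highest hypoxia value in each clone was that of replicate 3. The log2 fold changes without replicate 3 of the hypoxia groups were 3.33, 4.81 and 4.11 in sgCtl, sgXIST7 and sgXIST9, and all still passed. The paralog INSIG1, itself a classical SREBP target, responded less, from 20.3, 17.4 and 23.6 to 45.7, 41.8 and 85.6 CPM in sgCtl (log2 fold change 1.49 ± 0.25 SE, adjusted p = 9.3e-05). In sgXIST9 it moved from 29.8, 21.5 and 28.0 to 52.9, 40.1 and 58.3 CPM (log2 fold change 0.93 ± 0.24 SE, adjusted p = 0.00348), and in sgXIST7 from 27.1, 26.0 and 27.9 to 35.0, 56.4 and 42.8 CPM, which did not pass (log2 fold change 0.73 ± 0.24 SE, adjusted p = 0.0148) although the libraries did not overlap. Without replicate 3 of the hypoxia groups the sgXIST7 value passed too (0.77, adjusted p = 0.00186). The sgXIST9 call was lost without sgXIST9 normoxia replicate 2 or 3 or sgXIST9 hypoxia replicate 1 or 3 (log2 0.80 to 0.97).

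SREBF2, which encodes the SREBP most tied to cholesterol genes, rose in each clone. Its CPM were 20.9, 24.7 and 20.5 in sgCtl normoxia and 45.5, 37.1 and 70.1 in sgCtl hypoxia (log2 fold change 1.20 ± 0.24 SE, adjusted p = 0.000485). They were 43.0, 82.9 and 51.2 and 106, 158 and 116 in sgXIST7 (log2 fold change 1.11 ± 0.23 SE, adjusted p = 0.000568), and 38.1, 37.7 and 35.3 and 80.4, 74.1 and 86.9 in sgXIST9 (log2 fold change 1.12 ± 0.23 SE, adjusted p = 0.000633). None of these normoxia and hypoxia groups overlapped. SREBF1, whose products drive fatty acid genes, did not pass in any clone with all libraries. It was read at 50.02, 51.5 and 45.6 CPM in sgCtl normoxia and 51.9, 58.0 and 66.9 in hypoxia (log2 0.26 ± 0.16), at 98.7, 156 and 95.7 and 76.8, 85.5 and 86.7 in sgXIST7 (-0.49 ± 0.15), and at 75.7, 69.7 and 69.8 and 64.6, 75.8 and 64.7 in sgXIST9 (-0.07 ± 0.15), and in sgXIST7 the level of replicate 2 in normoxia stood far above the other 2. The sgXIST7 value passed downward without sgCtl hypoxia replicate 3 (-0.48, adjusted p = 0.00839) and with the replicate number as a block (-0.47, adjusted p = 0.0081). STARD4, a sterol transfer protein, rose from 22.0, 22.0 and 25.0 to 69.9, 47.3 and 107 CPM in sgCtl (log2 fold change 1.70 ± 0.21 SE, adjusted p = 6.41e-06). The rise in sgXIST9 was from 25.6, 20.7 and 25.0 to 102, 81.1 and 89.6 CPM (log2 fold change 1.93 ± 0.21 SE, adjusted p = 1.08e-06), and in sgXIST7 from 69.8, 57.7 and 54.5 to 135, 141 and 113 CPM (log2 fold change 1.10 ± 0.21 SE, adjusted p = 0.000221). The normoxia libraries of sgXIST7 were above those of the other clones. SCAP stayed between 55.9 and 79.1 CPM in all 18 libraries and passed in no comparison.

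**Figure D2:**
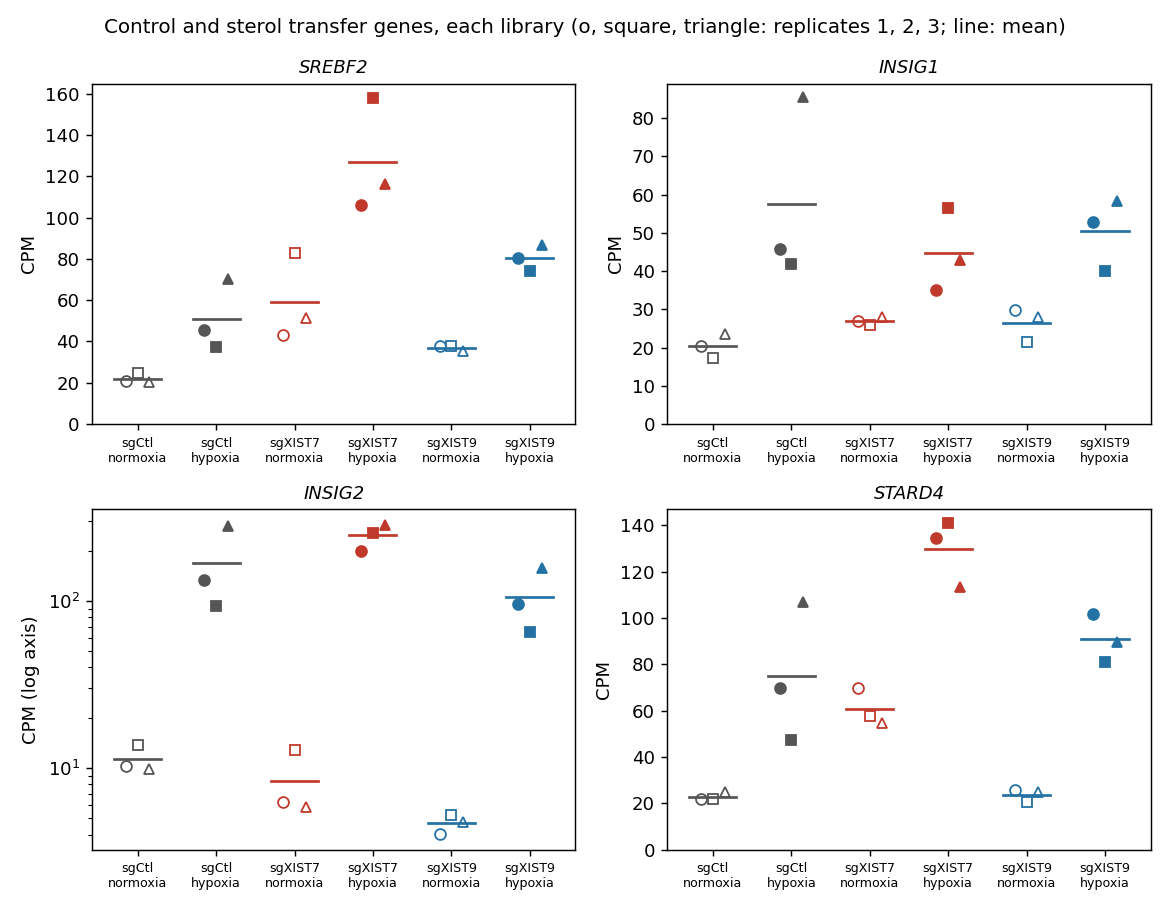
CPM of SREBF2, INSIG1, INSIG2 (log axis) and STARD4 in each of the 18 libraries, by group, with open symbols for normoxia, filled ones for hypoxia, a circle, square and triangle for replicates 1, 2 and 3, and a line at the group mean. Every filled symbol lies above the open symbols of the same clone for all 4 genes, and for STARD4 the open sgXIST7 symbols lie above the open symbols of the other clones.

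Of the 7 mevalonate genes 4 fell in hypoxia in sgXIST7, where 23.2% of all tested genes fell, and the values of all 7 were below 0 (median log2 fold change -0.98). In sgCtl 1 rose and 2 fell (median -0.21, all genes 18.8% and 18.8%), and in sgXIST9 2 fell (median -0.38, all genes 19%). These counts do not test a difference between clones, which is given with the interactions. ACAT2, at the entry of the pathway, fell in every clone. It went from 82.9, 69.3 and 83.7 to 42.2, 42.5 and 35.8 CPM in sgCtl (log2 fold change -0.97 ± 0.19 SE, adjusted p = 0.000544). In sgXIST7 it went from 97.9, 74.7 and 102 to 24.3, 18.4 and 14.5 CPM (log2 fold change -2.25 ± 0.20 SE, adjusted p = 8e-08), and in sgXIST9 from 80.8, 70.1 and 81.0 to 29.0, 32.2 and 18.4 CPM (log2 fold change -1.54 ± 0.20 SE, adjusted p = 5.42e-06). All hypoxia values were below all normoxia values of their clone. FDPS fell in every clone as well, with log2 fold changes of -0.78, -0.98 and -0.78 in sgCtl, sgXIST7 and sgXIST9 (adjusted p = 0.00322, 0.000379 and 0.0027). MVK, which phosphorylates mevalonate, fell in sgXIST7 from 16.2, 17.8 and 17.2 to 6.26, 4.98 and 2.76 CPM (log2 fold change -1.84 ± 0.27 SE, adjusted p = 2.15e-05), while its sgCtl values were 7.11, 6.57 and 11.1 in normoxia and 6.81, 7.04 and 7.71 in hypoxia and overlapped, and in sgXIST9 the log2 fold change was -0.85 ± 0.27 (adjusted p = 0.0123). MVD, the decarboxylase that ends the mevalonate steps, went from 39.8, 46.1 and 44.3 to 21.1, 17.9 and 22.1 CPM in sgXIST7 (log2 fold change -1.09 ± 0.17 SE, adjusted p = 3.16e-05) and overlapped between normoxia and hypoxia in the other clones. IDI1, the isopentenyl diphosphate isomerase, rose in sgCtl (log2 0.83 ± 0.18, adjusted p = 0.00121) and not by the test in sgXIST7 (-0.30 ± 0.18) or sgXIST9 (0.37 ± 0.18). HMGCS1 (HMG-CoA synthase) and PMVK (phosphomevalonate kinase) passed in no clone by edgeR with all libraries, with log2 fold changes in sgXIST7 of -0.56 for HMGCS1 and -0.54 for PMVK, and in sgCtl of 0.49 and -0.35. With DESeq2 PMVK passed downward in sgXIST7 (-0.51, adjusted p = 0.00796) and MVK in sgXIST9 (-0.88, adjusted p = 0.0025). Without replicate 3 of the hypoxia groups HMGCS1 passed upward in sgCtl (0.43, adjusted p = 0.00573) and sgXIST9 (0.42, adjusted p = 0.00571), and IDI1 in sgXIST9 (0.56, adjusted p = 0.00194). For FDPS in sgCtl, replicate 3 in hypoxia (100.2 CPM) stood well above replicates 1 and 2 (53.7 and 47.9). The log2 fold change was -1.18 without it, and the call was lost without sgCtl normoxia replicate 3 or sgCtl hypoxia replicate 1 or 2 (-0.68 to -0.58). The sgXIST9 call of FDPS was lost without sgXIST9 hypoxia replicate 3 (-0.71).

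**Figure D3:**
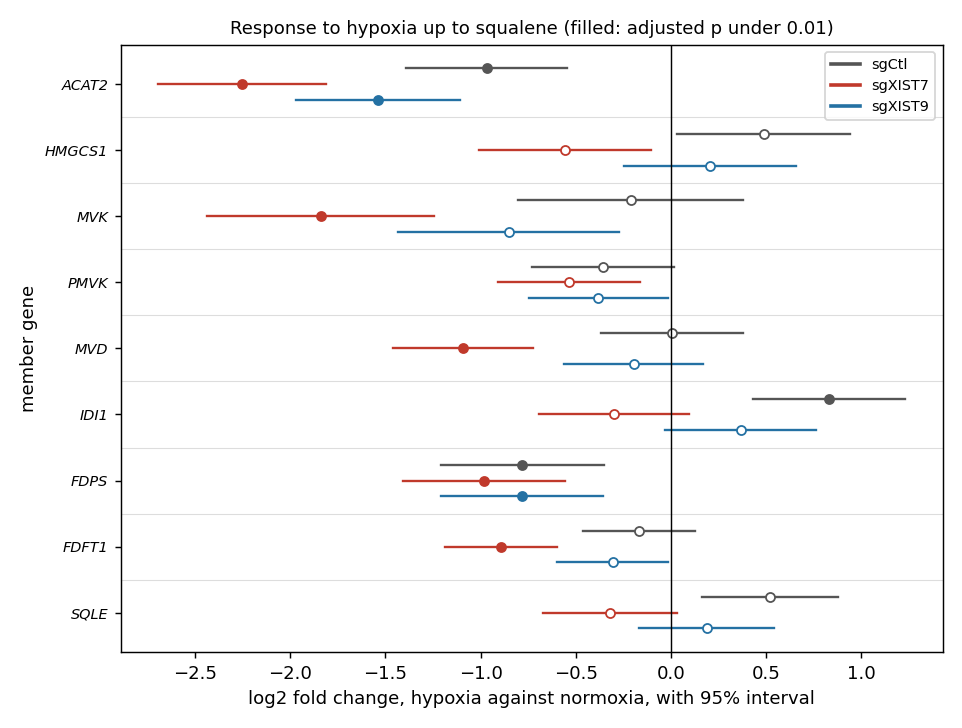
Log2 fold change of hypoxia against normoxia with its 95% interval (horizontal axis) for the 7 mevalonate genes and for FDFT1 and SQLE (rows), in sgCtl (grey), sgXIST7 (red) and sgXIST9 (blue), filled where the adjusted p was under 0.01. The sgXIST7 point is the lowest of the 3 clones in all 9 rows, and the sgXIST9 point lies between the others in each of them.

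From squalene to cholesterol, 4 of 11 genes rose in sgCtl and 1 fell, 2 rose and 3 fell in sgXIST7, and 4 rose and 1 fell in sgXIST9. The shares over all tested genes were 18.8%, 23.6% and 23.1% higher and 18.8%, 23.2% and 19% lower in these clones. LSS, which closes squalene epoxide into lanosterol, rose in each clone. It went from 7.71, 6.03 and 6.43 to 13.7, 12.4 and 16.9 CPM in sgCtl (log2 fold change 1.09 ± 0.22 SE, adjusted p = 0.000549), with log2 fold changes of 0.92 ± 0.21 in sgXIST7 (adjusted p = 0.00105) and 1.59 ± 0.21 in sgXIST9 (adjusted p = 9.37e-06), where the CPM went from 6.78, 7.06 and 6.25 to 18.8, 22.9 and 18.9. TM7SF2, the sterol C14-reductase, rose in both KD clones. It went from 5.49, 5.10 and 6.89 to 31.3, 32.4 and 29.7 CPM in sgXIST9 (log2 fold change 2.42 ± 0.18 SE, adjusted p = 1.39e-08) and from 8.82, 12.3 and 9.36 to 35.3, 31.6 and 24.9 in sgXIST7 (log2 fold change 1.60 ± 0.17 SE, adjusted p = 6.47e-07). In sgCtl it was 18.9, 15.8 and 18.8 CPM in normoxia and 22.2, 19.3 and 27.4 in hypoxia, and the difference did not pass (log2 fold change 0.36 ± 0.17 SE, adjusted p = 0.0866). EBP fell in every clone, with log2 fold changes of -0.81, -1.72 and -1.40 in sgCtl, sgXIST7 and sgXIST9 (adjusted p = 0.00887, 1.09e-05 and 9.61e-05). The sgCtl call of EBP was lost in 14 of 18 fits that each left out 1 library (log2 -0.92 to -0.61, adjusted p = 0.0104 to 0.0390), those of all 6 sgCtl libraries among them. FDFT1 (squalene synthase) fell in sgXIST7 (log2 -0.89 ± 0.14, adjusted p = 2.7e-05), as did NSDHL, a sterol C4-demethylating enzyme (-0.63 ± 0.17, adjusted p = 0.0036). The NSDHL call was lost without sgXIST7 normoxia replicate 1 or 3 or sgXIST7 hypoxia replicate 2 or 3 (-0.62 to -0.53).

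Of the 7 members that consume molecular oxygen (SQLE, CYP51A1, MSMO1, SC5D, SCD, FADS1 and FADS2), 3 rose in sgCtl, 1 in sgXIST7 and 3 in sgXIST9. None fell, by this test with all libraries or by DESeq2, and at an unadjusted p under 0.05 only FADS1 was lower, in sgXIST7. Of all tested genes 18.8%, 23.6% and 23.1% rose in sgCtl, sgXIST7 and sgXIST9, and 18.8%, 23.2% and 19% fell. FADS1 passed downward in sgCtl without replicate 3 of the hypoxia groups (-0.40, adjusted p = 0.00733). MSMO1 (sterol C4-methyl oxidase) rose by 0.77 in sgCtl and 0.76 in sgXIST9 on the log2 scale (adjusted p = 0.00106 and 0.000948), and SC5D (sterol desaturase) by 1.00 and 0.78 (adjusted p = 0.000536 and 0.00328). The sgXIST9 call of SC5D was lost without sgXIST9 normoxia replicate 1 or 2 or sgXIST9 hypoxia replicate 1 or 2 (0.66 to 0.79). In sgXIST7 these 2 genes had log2 fold changes of 0.51 ± 0.16 and 0.64 ± 0.20, and both passed without replicate 3 of the hypoxia groups (0.62, adjusted p = 0.000304, and 0.85, adjusted p = 3.19e-05). CYP51A1, the lanosterol demethylase, was among the steadiest members, at 93.1 to 128 CPM in all 18 libraries and with no call in any comparison. SQLE, the squalene epoxidase, had log2 fold changes of 0.52 ± 0.16, -0.32 ± 0.16 and 0.19 ± 0.16 in sgCtl, sgXIST7 and sgXIST9 and did not pass. It passed upward in sgCtl with DESeq2 (0.55, adjusted p = 0.00331), and without replicate 3 of the hypoxia groups in sgCtl (0.49, adjusted p = 0.000506) and sgXIST9 (0.35, adjusted p = 0.00591). DHCR7, the last reductase of one branch, rose in sgCtl (0.53 ± 0.12, adjusted p = 0.00134), and HSD17B7 passed in no clone with all libraries. In sgXIST9 HSD17B7 passed upward with DESeq2 (0.82, adjusted p = 0.00856) and without replicate 3 of the hypoxia groups (1.15, adjusted p = 1.64e-05).

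Among the fatty acid genes, SCD rose in each clone while the genes that build the chain fell or did not pass. SCD was read at 51.5, 64.9 and 40.0 CPM in sgCtl normoxia and 780.3, 663 and 806 in sgCtl hypoxia, a 14.4-fold rise (log2 fold change 3.85 ± 0.21 SE, adjusted p = 9.41e-10). In sgXIST7 it went from 389, 621 and 385 to 1615, 2143 and 2219.8 CPM (log2 fold change 2.10 ± 0.20 SE, adjusted p = 1.22e-07), and in sgXIST9 from 199, 171 and 191 to 1055, 923 and 1089.5 CPM (log2 fold change 2.45 ± 0.20 SE, adjusted p = 3.5e-08). No hypoxia group overlapped the normoxia group of its clone. ELOVL6, which elongates palmitate, fell from 28.4, 37.6 and 33.5 to 6.997, 7.64 and 7.79 CPM in sgCtl (log2 fold change -2.15 ± 0.22 SE, adjusted p = 7.17e-07) and from 40.1, 48.3 and 38.3 to 18.3, 13.3 and 9.67 in sgXIST7 (log2 fold change -1.60 ± 0.21 SE, adjusted p = 5.32e-06). In sgXIST9 it was 36.4, 32.2 and 34.9 in normoxia and 24.0, 26.8 and 15.3 in hypoxia, without overlap, and did not pass (log2 fold change -0.64 ± 0.20 SE, adjusted p = 0.0135). It passed there with DESeq2 (-0.67, adjusted p = 0.004265) and with the replicate number as a block (-0.67, adjusted p = 0.00664). FASN, the fatty acid synthase, went from 329, 771 and 386 to 140.4, 130.2 and 133 CPM in sgXIST7 (log2 fold change -1.88 ± 0.27 SE, adjusted p = 1.21e-05). It also fell in sgXIST9 (log2 fold change -0.89 ± 0.26 SE, adjusted p = 0.00747), a call lost in 7 of 18 fits that each left out 1 library (-0.96 to -0.77), 5 of them libraries of sgXIST9, and lost without replicate 3 of the hypoxia groups. In sgCtl the FASN libraries of normoxia and hypoxia overlapped (log2 -0.40 ± 0.26). ACACA, which commits acetyl-CoA to fatty acids, fell in sgXIST7 (log2 fold change -1.55 ± 0.35 SE, adjusted p = 0.000989), with -0.92 ± 0.36 in sgCtl and -1.02 ± 0.34 in sgXIST9. The sgXIST9 value of ACACA passed with DESeq2 (-1.05, adjusted p = 0.00639). Without sgXIST7 normoxia replicate 2, the sgXIST7 values of FASN and ACACA were -1.41 and -1.08, and both still passed. ACLY and the polyunsaturated desaturases FADS1 and FADS2 passed in no clone with all libraries. When replicate 3 of the hypoxia groups was left out, ACLY passed downward in sgCtl (-0.53, adjusted p = 0.00924), as did FADS1, and FADS2 upward in sgXIST9 (0.73, adjusted p = 5.38e-05).

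**Figure D4:**
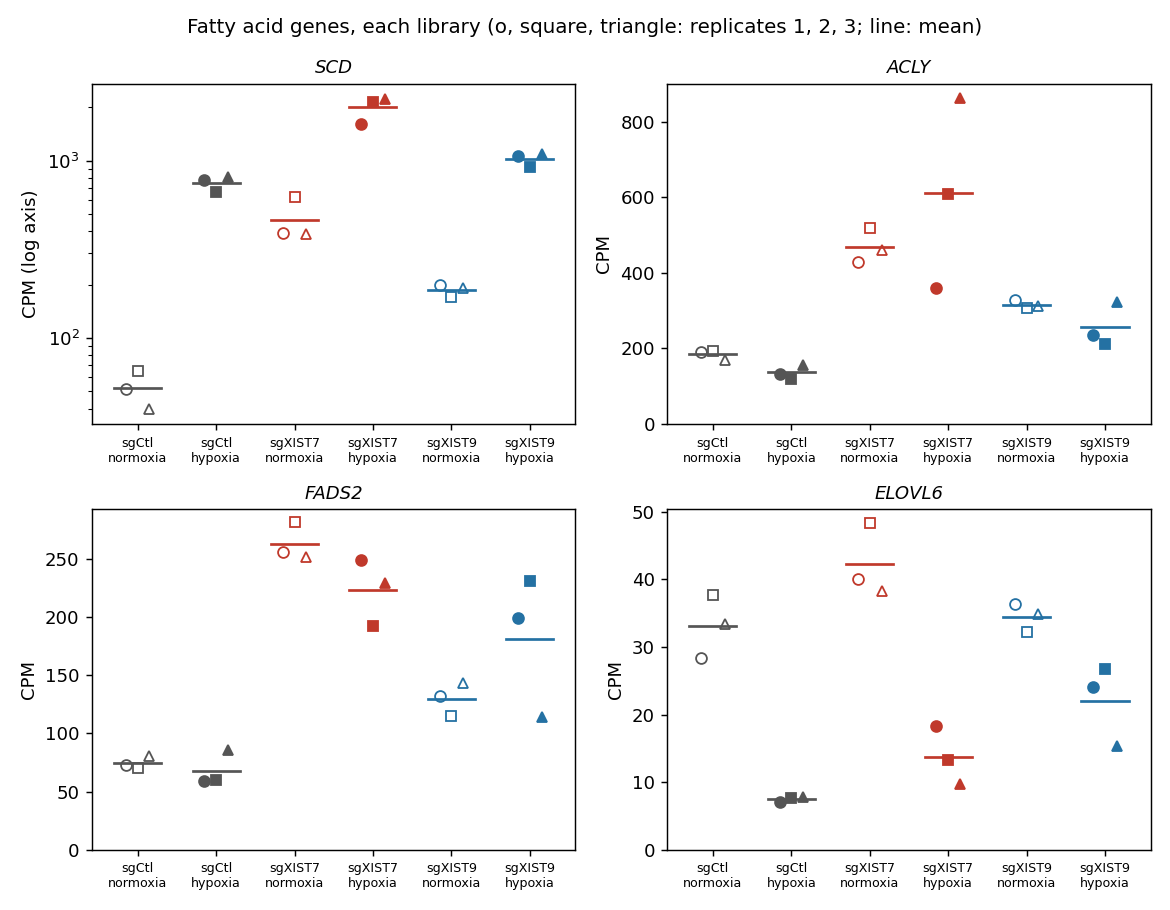
CPM of SCD (log axis), ACLY, FADS2 and ELOVL6 in each of the 18 libraries, with groups and symbols as for the control genes. SCD is higher in every filled than open symbol of the same clone, ACLY and FADS2 are lower in all 6 sgCtl libraries than in the KD libraries, and ELOVL6 is lowest in the 3 sgCtl hypoxia libraries.

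In normoxia the pathway stood higher in sgXIST7 than in sgCtl. Of the 31 members 14 rose and 1 fell, where 7.39% of all tested genes rose and 6.11% fell, and 27 of 31 had a positive log2 fold change (median 0.65, against -0.0060 over all genes). With the 2-fold limit 10 passed, against 7.76% of all genes. The 14 came from each role: 3 of 7 mevalonate genes (MVK, MVD and IDI1), 5 of 11 from squalene on (FDFT1, SQLE, LSS, MSMO1 and DHCR7), 3 of 6 control genes (SREBF1, SREBF2 and STARD4) and 3 of 7 fatty acid genes (SCD, ACLY and FADS2). The one that fell was TM7SF2 (log2 -0.82 ± 0.17, adjusted p = 0.00214). The numbered replicates of sgCtl and sgXIST7 in normoxia deviated together (correlations 0.148, 0.379 and 0.195), and with the replicate number as a block the count was again 14 up and 1 down, with MVK lost (1.03, adjusted p = 0.0107) and FASN gained (0.79, adjusted p = 0.0026).

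SCD had the largest difference, at 389, 621 and 385 CPM in sgXIST7 against 51.5, 64.9 and 40.0 in sgCtl, 8.93-fold higher (log2 fold change 3.16 ± 0.21 SE, adjusted p = 7.69e-09). FADS2, which desaturates linoleic and linolenic acids, was read at 256, 281 and 252 CPM against 73.0, 70.4 and 80.4 (log2 fold change 1.82 ± 0.20 SE, adjusted p = 4.45e-06). ACLY was at 428, 519 and 462 CPM against 189, 193 and 170.2 (log2 fold change 1.35 ± 0.23 SE, adjusted p = 0.000262). None of these 3 overlapped between the clones, which the rule for showing values by library required. The log2 difference of SREBF2 was 1.42 ± 0.24 (adjusted p = 0.000277), that of SREBF1 1.25 ± 0.16 (adjusted p = 1.4e-05) and that of STARD4 1.40 ± 0.21 (adjusted p = 0.000105), with every sgXIST7 library above every sgCtl library for all 3. INSIG1 (0.40 ± 0.24) and INSIG2 (-0.45 ± 0.40) did not pass. For FASN (log2 0.84 ± 0.26) and ACACA (1.08 ± 0.34) replicate 2 of sgXIST7 was far above its fellows, at 771 CPM against 329 and 386 for FASN, and neither passed.

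Several of the sgXIST7 calls in normoxia were close to the threshold. Those of MVK (lost in 12 of 18 fits that each left out 1 library, log2 0.90 to 1.07) and MSMO1 (lost in 13, 0.54 to 0.71) were lost most often. Those of SQLE (sgCtl replicates 1, 2 and 3, sgXIST7 replicates 1 and 3; 0.65 to 0.74), LSS (sgCtl replicates 2 and 3, sgXIST7 replicate 1; 0.71 to 0.99), TM7SF2 (sgCtl replicates 1 and 3, sgXIST7 replicates 1 and 3; -0.77 to -0.72) and IDI1 (sgCtl replicate 2; 0.76) were lost without the named normoxia libraries. Without sgXIST7 normoxia replicate 2 the count was 13 up and 1 down, and the log2 differences of SREBF1, SREBF2 and SCD were 0.99, 1.10 and 2.90.

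sgXIST9 differed from sgCtl in normoxia at fewer members. Of 31, 3 rose and 1 fell, where 6.51% of all genes rose and 6.6% fell, their median change was 0.16 (all genes -0.02), and 2 passed the 2-fold limit against 7.7% of all genes. SCD was at 199, 171 and 191 CPM against 51.5, 64.9 and 40.0 in sgCtl, 3.59-fold higher (log2 fold change 1.85 ± 0.20 SE, adjusted p = 2.08e-06), and FADS2 at 132, 115 and 143 against 73.0, 70.4 and 80.4 (log2 fold change 0.80 ± 0.20 SE, adjusted p = 0.00788). DHCR7 was at 45.2, 46.0 and 45.5 CPM against 29.4, 28.2 and 32.1 (log2 fold change 0.61 ± 0.12 SE, adjusted p = 0.00101). TM7SF2 fell, at 5.49, 5.10 and 6.89 CPM against 18.9, 15.8 and 18.8 (log2 fold change -1.62 ± 0.18 SE, adjusted p = 3.32e-06). The libraries of the clones did not overlap for these 4, and the FADS2 call was lost in 12 of 18 fits that each left out 1 library (log2 0.73 to 0.88). SREBF1 (0.55 ± 0.15), SREBF2 (0.75 ± 0.24), INSIG1 (0.37 ± 0.24) and INSIG2 (-1.28 ± 0.42) did not pass in this fit. DESeq2 called SREBF1 higher (0.57, adjusted p = 0.005486) and INSIG2 lower (-1.26, adjusted p = 0.0072). With the replicate number as a block SREBF1 passed upward too (0.55, adjusted p = 0.00905). Both KD clones are set against the same 3 sgCtl libraries, so the calls they share for SCD, FADS2, DHCR7 and TM7SF2 are not independent of each other. Without replicate 3 of the hypoxia groups, which changes the estimate of spread, 6 rose and 2 fell. In a fit of these 2 groups alone 10 rose and 4 fell. The shares of all genes were computed for neither fit.

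The 2 KD clones differed from each other in normoxia in 1 direction. Set against sgXIST9, 8 members were higher in sgXIST7 and none lower (all genes 2.93% and 2.04%; 4 past the 2-fold limit against 3.4%), with 28 of 31 log2 fold changes above 0 (median 0.57, all genes 0.01). At an unadjusted p under 0.05 edgeR gave 1 lower member, and DESeq2 called 0 lower. The differences passed for MVD, LSS, TM7SF2, DHCR7, SREBF1, STARD4, SCD and FADS2. STARD4 was at 69.8, 57.7 and 54.5 CPM in sgXIST7 and 25.6, 20.7 and 25.0 in sgXIST9 (log2 fold change 1.35 ± 0.21 SE, adjusted p = 0.000325), SCD differed by 1.31 ± 0.19 (adjusted p = 0.000162), LSS, at 19.1, 12.2 and 9.88 CPM against 6.78, 7.06 and 6.25, by 1.03 ± 0.21 (adjusted p = 0.00404) and FADS2 by 1.02 ± 0.20 (adjusted p = 0.00264). MVD was at 39.8, 46.1 and 44.3 CPM in sgXIST7 and 22.1, 23.9 and 23.1 in sgXIST9 (log2 fold change 0.91 ± 0.17 SE, adjusted p = 0.0014). All sgXIST7 libraries were above all sgXIST9 libraries for these genes, which were picked for absence of overlap. The count depended on single libraries: it was 4 without sgXIST7 normoxia replicate 2, where SREBF1 had a log2 difference of 0.44, and 17, all higher, without replicate 3 of the hypoxia groups. Without sgXIST9 normoxia replicate 1 it was 2. The shares of all genes in these reduced fits were not computed. Of the 18 fits that each left out 1 library, the call was lost in 10 for TM7SF2 (0.65 to 0.86), 11 for DHCR7 (0.47 to 0.53), 4 each for LSS (0.72 to 1.07) and SREBF1 (0.44 to 0.74), 3 for FADS2 (0.94 to 1.03) and 1 for MVD (0.89).

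In hypoxia 6 of the 9 members called between sgXIST7 and sgCtl were control or fatty acid genes. In sgXIST7 8 of 31 were higher and 1 lower (all genes 13.9% and 13.7%), 5 of them past the 2-fold limit (all genes 14%), and the median was 0.05 (all genes -0.02). The 8 were LSS and DHCR7, SREBF2 and STARD4, and ACLY, SCD, FADS2 and ELOVL6, and the 1 was ACAT2, so that no mevalonate gene was called higher (0 also by DESeq2 and at an unadjusted p under 0.05). ACLY was at 359, 609 and 864 CPM against 133, 120.4 and 156 in sgCtl (log2 fold change 2.16 ± 0.23 SE, adjusted p = 1.98e-06), with its 3 sgXIST7 libraries widely spread. FADS2 was at 249, 192 and 229 CPM against 58.7, 59.8 and 85.6 (log2 fold change 1.72 ± 0.20 SE, adjusted p = 6.04e-06), and SCD at 1615, 2143 and 2219.8 against 780.3, 663 and 806 (log2 fold change 1.41 ± 0.19 SE, adjusted p = 2.43e-05). SREBF2 was at 106, 158 and 116 CPM against 45.5, 37.1 and 70.1 (log2 fold change 1.32 ± 0.23 SE, adjusted p = 0.00028). ACAT2 was lower, at 24.3, 18.4 and 14.5 CPM against 42.2, 42.5 and 35.8 (log2 fold change -1.07 ± 0.20 SE, adjusted p = 0.00046). The groups did not overlap for these 5, a condition of the rule by which members are shown library by library. SREBF1 (0.50 ± 0.15), INSIG1 (-0.36 ± 0.24) and INSIG2 (0.55 ± 0.36) did not pass. The count was 5 in a fit of these 2 groups alone, and it rose to 12 up and 2 down without sgCtl hypoxia replicate 3, where FDPS (0.45, adjusted p = 0.00599), MSMO1 (0.62, adjusted p = 0.00238), SREBF1 (0.59, adjusted p = 0.00707) and FADS1 (0.51, adjusted p = 0.00693) passed upward and NSDHL downward (-0.59, adjusted p = 0.00949). The calls of LSS (0.75 to 0.82), STARD4 (0.55 to 0.77) and ELOVL6 (0.63 to 0.92) were each lost without sgCtl hypoxia replicate 1 or 2, and also without sgXIST7 hypoxia replicate 2 or 3 for LSS and replicate 1 or 2 for STARD4 and ELOVL6.

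sgXIST9 in hypoxia had 3 members above sgCtl and none below (all genes 9.65% and 8.24%; 2 past the 2-fold limit against 9.53%), with a median of 0.03 (all genes -0.01). At an unadjusted p under 0.05 edgeR gave 2 lower members, and DESeq2 called 2 lower. The 3 higher members, 9.68% of the 31, were a share near that of all genes. They were all fatty acid genes. ELOVL6 was at 24.0, 26.8 and 15.3 CPM against 6.997, 7.64 and 7.79 (log2 fold change 1.56 ± 0.22 SE, adjusted p = 4e-05). FADS2 was at 199, 231 and 114 CPM against 58.7, 59.8 and 85.6 (log2 fold change 1.42 ± 0.20 SE, adjusted p = 5.08e-05), and ACLY at 235, 212 and 323 against 133, 120.4 and 156 (log2 fold change 0.91 ± 0.22 SE, adjusted p = 0.00547). No library of one clone reached into the other's range, and replicate 3 of sgXIST9 was the lowest of its group for ELOVL6 and FADS2 and the highest for ACLY. The same-numbered replicates of these 2 groups had correlations of 0.197, 0.520 and 0.566 in their deviations. Replicate 1 of sgCtl and replicate 2 of sgXIST9, of unlike number, reached 0.283, so the numbers do not establish a pairing. With the replicate number as a block 4 were higher and 1 lower, FADS1 (0.50, adjusted p = 0.00737) and SC5D (-0.69, adjusted p = 0.00812) being added. In a fit of these 2 groups alone 1 was called. Without sgCtl hypoxia replicate 3 the count was 6 up and 1 down, with SREBF2 (0.96, adjusted p = 0.00275), STARD4 (0.63, adjusted p = 0.00606) and FADS1 (0.61, adjusted p = 0.00257) among those higher. The ACLY call was lost without sgCtl hypoxia replicate 1 or 2 or sgXIST9 hypoxia replicate 1 or 3 (0.70 to 0.96). SCD (0.45 ± 0.19), SREBF1 (0.22 ± 0.15), SREBF2 (0.67 ± 0.23), INSIG1 (-0.19 ± 0.24) and INSIG2 (-0.67 ± 0.36) did not pass.

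Between the KD clones in hypoxia, ACLY (log2 fold change 1.25 ± 0.22 SE, adjusted p = 0.000978), SCD (log2 fold change 0.96 ± 0.19 SE, adjusted p = 0.00212) and DHCR7 (log2 fold change 0.48 ± 0.12 SE, adjusted p = 0.00883) were higher in sgXIST7, DHCR7 at 62.7, 81.1 and 67.5 CPM against 50.3, 54.5 and 47.1, and no member was lower (all genes 4.21% and 4.22%; 1 past the 2-fold limit against 4.46%). The groups did not overlap for these 3, and 1 member was called in a fit of these 2 groups alone. At an unadjusted p under 0.05 edgeR gave 3 lower members, and DESeq2 called 1 lower. The DHCR7 call was lost in 13 of 18 fits that each left out 1 library (0.36 to 0.54), and that of SCD without sgXIST7 hypoxia replicate 2 or 3 or sgXIST9 hypoxia replicate 2 (0.88 to 0.91) or without replicate 3 of the hypoxia groups (0.93). INSIG2 had a log2 difference of 1.23 ± 0.36 (adjusted p = 0.0269) and passed without replicate 3 of the hypoxia groups (1.51, adjusted p = 0.00441).

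The difference in the response to hypoxia between a KD clone and sgCtl, tested as an interaction, passed for few members. For sgXIST7 it was higher for 1 and lower for 1 (all genes 1.18% and 0.984%; both past the 2-fold limit, against 1.52%), and 27 of 31 members had a value below 0 (median -0.40, all genes -0.0079). For sgXIST9 it was higher for 2 and lower for 1 (all genes 0.756% and 0.502%; 3 past the 2-fold limit, against 1.01%), with a median of -0.20 (all genes 0.04). SCD rose less in the KD clones than in sgCtl, with differences of -1.75 ± 0.27 in sgXIST7 (95% interval -2.34 to -1.16, adjusted p = 0.00153) and -1.40 ± 0.27 in sgXIST9 (95% interval -1.99 to -0.81, adjusted p = 0.00758) on the log2 scale, from normoxia levels that were higher in both. TM7SF2 had a larger response, with differences of 1.24 ± 0.24 (adjusted p = 0.00633) and 2.06 ± 0.25 (adjusted p = 0.000186), from normoxia levels that were lower in both. ELOVL6 fell less in sgXIST9 (1.51 ± 0.30, adjusted p = 0.0085), and for sgXIST7 its value was 0.55 ± 0.30 (adjusted p = 0.251). The difference between the 2 KD clones' responses was not tested.

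All 7 mevalonate genes had a lower response in sgXIST7 than in sgCtl (median -1.10), and none passed in the edgeR fit with all libraries, although 5 had an unadjusted p under 0.05 and DESeq2 called 5. Shares of all genes were not computed at an unadjusted p, by DESeq2 or in the other fits below, so those counts have no background beside them. MVK had -1.63 ± 0.38 (adjusted p = 0.0162), ACAT2 -1.28 ± 0.28 (adjusted p = 0.0102), IDI1 -1.13 ± 0.26 (adjusted p = 0.014) and MVD -1.10 ± 0.24 (adjusted p = 0.011). In a fit of these 4 groups alone no member passed in either direction for sgXIST7. With all groups 2 members were higher and 14 lower at an unadjusted p under 0.05. Without replicate 3 of the hypoxia groups 5 of the 7 passed, namely ACAT2 (-1.20, adjusted p = 0.000399), HMGCS1 (-0.75, adjusted p = 0.00354), MVK (-1.33, adjusted p = 0.00264), MVD (-0.93, adjusted p = 0.000865) and IDI1 (-1.11, adjusted p = 0.000588), as did FDFT1, SQLE, NSDHL and EBP, for 1 higher and 10 lower members in all. Leaving out sgCtl hypoxia replicate 3 alone gave 1 higher and 7 lower. With the replicate number as a block, which these groups' numbers did not pass the check for, 1 was higher and 6 lower. The corresponding values in sgXIST9 were all below 0 as well (median -0.28) and none passed, with 0 at an unadjusted p under 0.05 and 0 by DESeq2 and with -0.64 ± 0.38 for MVK and -0.57 ± 0.27 for ACAT2. Among the control genes SREBF1 (-0.75 ± 0.22), SREBF2 (-0.10 ± 0.33), INSIG1 (-0.76 ± 0.34) and INSIG2 (1.01 ± 0.54) did not pass for sgXIST7, nor for sgXIST9 (-0.33, -0.09, -0.56 and 0.60). The TM7SF2 value for sgXIST7 was lost in 11 of 18 fits that each left out 1 library (1.12 to 1.32), the SCD value for sgXIST9 in 10 (-1.48 to -1.24) and the ELOVL6 value in 13 (1.34 to 1.61), with adjusted p-values of 0.0105 to 0.0281 in these fits.

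**Figure D5:**
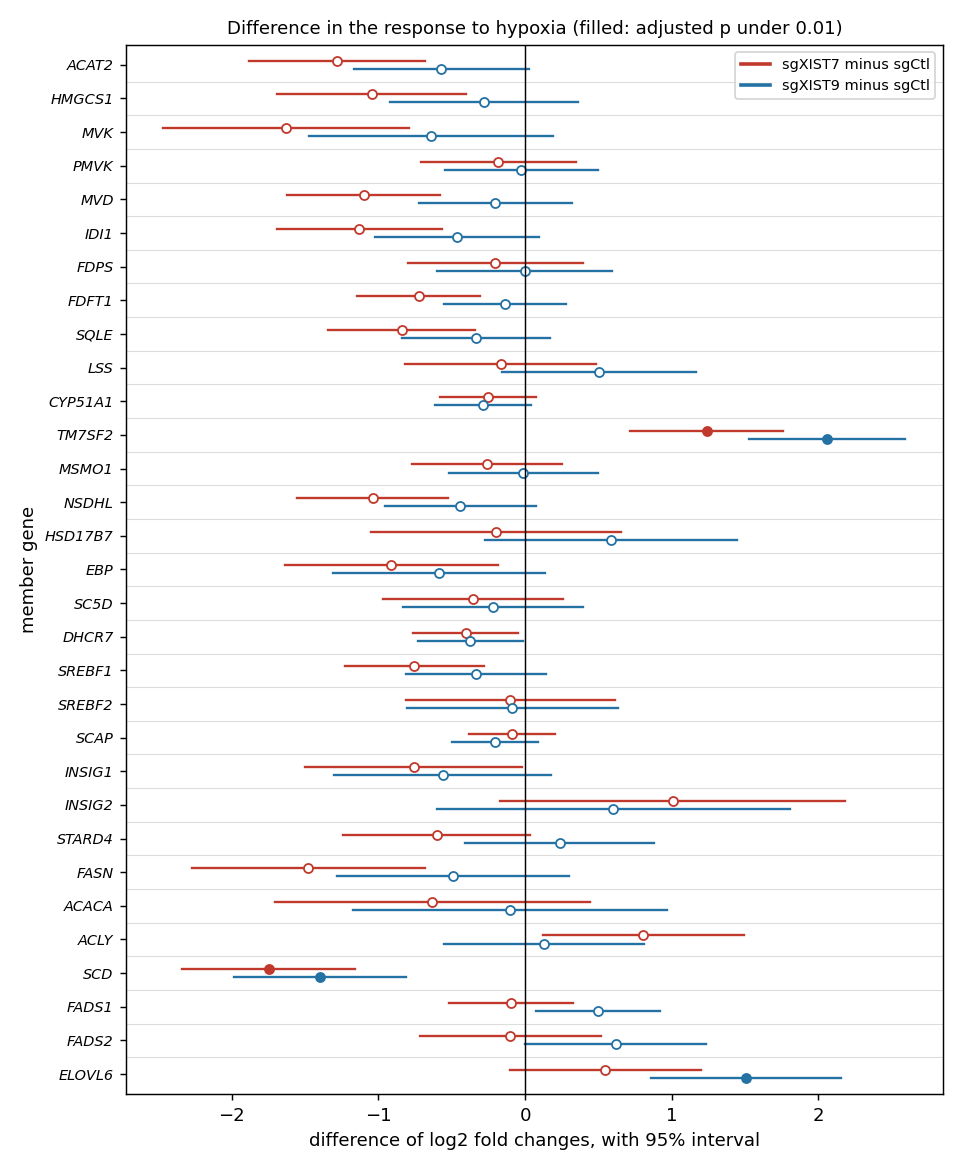
Difference between a KD clone and sgCtl in the log2 fold change of hypoxia against normoxia, with its 95% interval (horizontal axis), for each of the 31 members (rows by role), in sgXIST7 (red) and sgXIST9 (blue), filled where the adjusted p was under 0.01. Only 2 red and 3 blue points are filled, of SCD, TM7SF2 and ELOVL6, and all 7 red points of the mevalonate rows at the top lie left of 0.

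Genes around the pathway were read from lists by role. Their counts stand beside the shares of all tested genes that rose and fell in hypoxia, 18.8% and 18.8% in sgCtl, 23.6% and 23.2% in sgXIST7, and 23.1% and 19% in sgXIST9. They are given as counts only. Of 10 genes of SREBP processing and INSIG turnover, 2 rose in hypoxia in sgCtl, 3 rose and 3 fell in sgXIST7, and 2 rose and 3 fell in sgXIST9. MBTPS1, the site-1 protease that cuts SREBP in the Golgi, rose in each clone (log2 0.33 ± 0.09, 0.64 ± 0.09 and 0.92 ± 0.09, adjusted p = 0.00613, 1.32e-05 and 2.98e-07). PAQR3, which tethers SCAP to the Golgi, fell in sgXIST7 (-0.91 ± 0.21) and sgXIST9 (-0.77 ± 0.20). In hypoxia PAQR3 was below sgCtl in both KD clones (-1.08 ± 0.21 and -1.05 ± 0.21, adjusted p = 0.00058 and 0.000891). In normoxia 1 of the 10, RNF139, an E3 ubiquitin ligase, differed from sgCtl in sgXIST7 (-0.56 ± 0.14, adjusted p = 0.00681), where 7.39% of all tested genes were higher and 6.11% lower.

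Of 10 genes of sterol export, storage and sensing, 4 rose in hypoxia in sgCtl, 2 rose and 1 fell in sgXIST7, and 3 rose in sgXIST9. The oxysterol receptor gene NR1H2 rose in all 3 clones (log2 0.71 ± 0.10, 0.71 ± 0.10 and 0.47 ± 0.10). NPC1, which moves cholesterol out of lysosomes, rose in sgCtl (0.84 ± 0.12), and its response was smaller in sgXIST7 (-0.93 ± 0.17, adjusted p = 0.00399). MYLIP, a ligase that degrades lipoprotein receptors, rose in sgCtl (2.27 ± 0.37, adjusted p = 7.44e-05), from 7.78, 6.65 and 5.28 to 40.0, 43.4 and 10.9 CPM, where replicate 3 in hypoxia lay far below the others. The cholesterol exporter ABCA1 was at 3.37, 6.38 and 2.35 CPM in sgXIST7 normoxia against 0.738, 0.696 and 0.230 in sgCtl (log2 fold change 2.88 ± 0.51 SE, adjusted p = 0.000458), and ABCG1 at 4.37, 6.44 and 3.79 against 0.335, 0.387 and 0.344 (log2 fold change 3.75 ± 0.65 SE, adjusted p = 0.000369). ABCG1 rested on 5, 5 and 6 counts in sgCtl and 3, 3 and 7 in sgXIST9 (0.134, 0.159 and 0.409 CPM), which gave 4.38 ± 0.67 between the KD clones (adjusted p = 0.000259). In hypoxia ABCA1 was above sgCtl in both KD clones (2.5 ± 0.50 and 2.88 ± 0.50).

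Of 20 tested genes of fatty acid activation, elongation and supply, 2 rose and 4 fell in hypoxia in sgCtl, 3 rose and 5 fell in sgXIST7, and 6 rose and 2 fell in sgXIST9. The elongase ELOVL5 fell in each clone (-0.76 ± 0.14, -1.26 ± 0.14 and -0.98 ± 0.14), and ELOVL4, which elongates very long chains, rose in sgCtl (1.23 ± 0.29, with overlapping libraries) and sgXIST9 (1.08 ± 0.29). Against sgCtl in normoxia 4 rose and 1 fell in sgXIST7 (all tested genes 7.39% and 6.11%), and 2 rose and 4 fell in sgXIST9 (6.51% and 6.6%). In sgXIST9 ELOVL7 (-1.52 ± 0.19) and the second stearoyl-CoA desaturase SCD5 (-1.11 ± 0.13) were lower and the acyl-CoA synthetase ACSL1 (0.87 ± 0.19) higher. SCD5 stood below sgCtl where SCD stood above it, and its response to hypoxia was larger in sgXIST9 than in sgCtl (1.23 ± 0.18, adjusted p = 0.00137). In hypoxia ACSL3 (1.14 ± 0.12 and 0.68 ± 0.12) and the enoyl-CoA reductase TECR (1.00 ± 0.13 and 0.96 ± 0.13) were above sgCtl in both KD clones. Of 9 genes of the isoprenoid branch, 1 rose and 2 fell in sgCtl, 1 rose and 3 fell in sgXIST7, and 3 fell in sgXIST9. COQ2, of ubiquinone synthesis, fell in each clone (-1.30 ± 0.21, -1.42 ± 0.21 and -1.35 ± 0.21), as did PDSS1, which makes the ubiquinone side chain (-0.76 ± 0.12, -1.33 ± 0.12 and -1.38 ± 0.12).

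Some members share sequence with other genes, and the strand setting of the counting is not given in the sources used here. ACAT2 shares 30.3% of its exon bases with genes on the opposite strand (TCP1 among them), FDPS 28.9% with RUSC1-AS1 and IDI1 11.4% with 2 genes, and all other members under 5%. Of the 50-base windows in annotated transcripts, 71.1% of CYP51A1, 36.3% of HMGCS1, 31.4% of EBP, 17.5% of ACAT2, 14.5% of IDI1, 14.4% of HSD17B7 and 13.4% of FDPS also occurred in transcripts of other genes. Of SQLE, INSIG1, INSIG2, NSDHL and FASN 0% did. The windows were matched on both strands and may lie in transcripts of the same locus. The values of members with shared windows may be less certain, and whether reads were lost or misassigned was not tested.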

How the data were processed

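RNA-seq was read in 18 libraries of OVCAR3-KRAB cells, in 6 groups of 3. The authors trimmed the reads with Trimmomatic, checked them with FastQC, aligned them with HISAT2 to hg38 and counted reads per gene into 1 table of featureCounts layout. Versions, annotation release and strand setting are not given in the sources used here. The deposited values are raw read counts, 1 column per library, with no pooling and no normalization. Of 28279 lines, 2 were broken and left out. SPRING1, on a list of neighbouring genes, was matched by its older symbol C12orf49.

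The members, the gene lists by role, the rule for named genes and the choice of the libraries that stand apart were set with earlier results of these data known. Genes were filtered with filterByExpr (a minimum count of 10, a minimum total of 15), which left 14938, and libraries were scaled by TMM. A model of the 6 groups was fitted in edgeR 4.0.16 (R 4.3.3, limma 3.58.1) with the quasi-likelihood test on 12 residual degrees of freedom, so that all groups share 1 estimate of the spread. p-values were adjusted by Benjamini-Hochberg over all genes tested in a comparison, and a call is an adjusted p under 0.01, the study's threshold, with its further 2-fold limit as an alternative. Differences in response are interaction contrasts of the same model. The replicates of a group are taken as cultures of 1 clone, which the sources do not state, so p-values are read as measuring the spread between such cultures. With 3 against 3 libraries an exact permutation test cannot go below 0.1. Fold changes are on edgeR's log2 scale with a prior count of 0.125, CPM are TMM-scaled, and depth is the total count of a library.

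Values by library are given for SREBF1, SREBF2, INSIG1 and INSIG2 and for up to 5 members a comparison with the largest absolute log2 fold change among those called with groups that did not overlap. For members picked in this way, absence of overlap follows from the rule. Of each list of neighbouring genes up to 3 called genes a comparison may be named. Alternatives were DESeq2 1.42.0, RLE and upper-quartile scaling, 2 other filters, fits of the compared groups alone, a replicate block, 2 other thresholds, and fits without each library or without replicate 3 of the hypoxia groups. Replicate numbers in the labels were checked for pairing by the correlation of deviations from the group means. Every same-numbered pair was above 0.1 only for sgXIST7 against sgCtl in normoxia and sgXIST9 against sgCtl in hypoxia, and the labels give no shared day or batch. Pairs of unlike number also passed 0.1 there, at 0.133 for sgCtl replicate 3 with sgXIST7 replicate 1 in normoxia. In hypoxia sgCtl replicate 1 with sgXIST9 replicate 2 reached 0.283. TPM used the union of exons on the main chromosomes. Promoters and their coordinates are RefSeq's on GRCh38.p14, and 27 of 31 members were matched; ACAT2, FDFT1, SQLE and FASN were not. A gene of the list of SREBP processing is not reported here by name.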

Additional observations from a re-analysis of the deposited data

Results flagged for a closer look

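The interaction test, which compares the response to hypoxia of a KD clone with that of sgCtl directly, passed for 3 members. SCD had a difference of -1.75 on the log2 scale in sgXIST7 and -1.40 in sgXIST9, its level in normoxia being 52.1 ± 12.4 CPM in sgCtl against 465 ± 135 and 187 ± 14.3 (mean ± SD, n = 3). TM7SF2 had a difference of 1.24 in sgXIST7 and 2.06 in sgXIST9. ELOVL6 had a difference of 1.51 in sgXIST9. Both KD clones were set against the same sgCtl libraries.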

How the results depend on the processing

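Each count of members called in a comparison was recomputed under every alternative. The shares of all genes were computed only for the edgeR fit with all libraries, at an adjusted p under 0.01 with and without the 2-fold limit. Counts from the other settings therefore cannot be set against all genes. With DESeq2 it was 7 for sgXIST9 against sgCtl in normoxia, 6 in hypoxia, 5 for sgXIST7 against sgXIST9 in hypoxia and 11 for the difference in response of sgXIST7. At an adjusted p under 0.05 these 4 counts were 9, 7, 6 and 12. With the 2-fold limit the count was 7 for hypoxia in sgCtl, 8 in sgXIST9, 2 for sgXIST9 against sgCtl in normoxia, 5 for sgXIST7 against sgCtl in hypoxia, and 4 and 1 between the KD clones in normoxia and hypoxia. In fits of the compared groups alone it was 14 for sgXIST9 against sgCtl in normoxia (10 higher, 4 lower). It was 5 and 1 for sgXIST7 and sgXIST9 against sgCtl in hypoxia and 1 between the KD clones in hypoxia. For the difference in response of sgXIST7 it was 0 by edgeR. With all groups DESeq2 gave 11 for that difference, and edgeR had 2 higher and 14 lower at an unadjusted p under 0.05. With no filter or a mean CPM of at least 1, the edgeR count for that difference was 4. The cause was not tested.

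Leaving out libraries, singly or replicate 3 of all hypoxia groups together, gave 3 to 8 for sgXIST9 against sgCtl in normoxia, 6 to 14 and 2 to 8 for sgXIST7 and sgXIST9 against sgCtl in hypoxia, 2 to 17 and 1 to 5 between the KD clones in normoxia and hypoxia, and 1 to 11 and 1 to 5 for the differences in response of sgXIST7 and sgXIST9. The highest values were those without replicate 3 of the hypoxia groups, which are 8, 14, 8, 17, 5, 11 and 5 in that order. The cause was not tested.

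With the replicate block, the counts were 14, 20 and 14 for hypoxia in sgCtl, sgXIST7 and sgXIST9, 4 for sgXIST9 and 15 for sgXIST7 against sgCtl in normoxia, 11 and 5 for sgXIST7 and sgXIST9 against sgCtl in hypoxia, 8 and 3 between the KD clones, and 7 and 3 for the differences in response. The block is a check on shared numbers only, since pairing of the replicates is not given by the labels.

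Of values that changed sign, none was called: SREBF1 in sgXIST9 hypoxia was 0.018 with upper-quartile scaling, INSIG1 in hypoxia was 0.034 and 0.069 in sgXIST7 against sgCtl and 0.20 and 0.087 in sgXIST9 against sgCtl without sgCtl hypoxia replicate 3 and without replicate 3 of the hypoxia groups, and the ranges over single libraries were -0.57 to 0.034 and -0.38 to 0.20. INSIG1 between the KD clones in normoxia ranged from -0.097 to 0.13. The difference in response of SREBF2 was 0.20 and 0.27 in sgXIST7 and 0.21 and 0.15 in sgXIST9 under the same 2 settings, and 0.23 and 0.015 in sgXIST7 without its normoxia replicate 2 and hypoxia replicate 1, with lowest values of -0.29 in sgXIST7 and -0.27 in sgXIST9. No scaling moved the median of all genes by over 0.1.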
